A study of Rattus norvegicus with 12 samples.

Results

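The hydroxylated diphenyl ethers examined here are triclosan, an antibacterial agent, and diclosan, a close analogue that lacks a chlorine atom of triclosan and keeps its phenolic hydroxyl group. Their arrays on the first of the study's 2 slides were pooled into a single group of 5 (triclosan 1, 2 and 3 and diclosan 1 and 2) and compared with the 3 arrays of the vehicle DMSO on the same slide. These 8 arrays are part of a series of 12, chosen by compound and slide. The cells were primary hepatocytes, thawed from frozen stocks, of male rats of the Sprague Dawley strain. After 24 h in culture they received DMSO or 30 µM of a phenol, and RNA was taken 24 h later. The other 4 arrays, diclosan 3 and 3 arrays of 1-chloro-3-(4-chlorophenoxy) benzene (CCPB, a diphenyl ether without the hydroxyl group), lay on the second slide. Diclosan is the only group on both slides, so slide and group can be separated there only through diclosan 3. The values of these 4 arrays are therefore set side by side. The series presents each array as an independent experiment, and whether hepatocytes of different animals were used is not given in the sources used here, so the p-values measure the spread between these cultures.

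Hepatocytes sense lipophilic chemicals and bile acids through nuclear receptors such as CAR, PXR, FXR and AhR, which switch on oxidising and conjugating enzymes and transporters. Nr0b2, also called SHP, is a nuclear receptor without a DNA-binding domain that represses other receptors and is best known for shutting down bile acid synthesis. Phenols such as triclosan are cleared in liver mainly by glucuronidation and sulfation, and cholesterol synthesis enzymes are held together by the sterol-sensing SREBP pathway.

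The pooled comparison asked which changes the phenols share that neither compound's own comparison is large enough to find. Of 19872 transcripts measured above background, 2 passed at an adjusted p under 0.05 (0.0101%), both higher with the phenols: Nr0b2, which rose 4.02-fold, and Cited4, a coactivator that binds the histone acetyltransferases CBP and p300, which rose 1.51-fold. In this main model Cited4 was the 1 transcript (0.00503%) that passed in the pooled comparison and in neither single comparison. Under another variance model, given below, it passed singly as well. The promoters of these genes are shown because they are the pair that passed. Each runs 5′ to 3′ on the plus strand from 250 bases before to 50 bases after the annotated start, from RefSeq on build GRCr8. The capitals mark GCGTG, the core letters of the response element bound by AhR.
Nr0b2 (chr5:151062910-151063209): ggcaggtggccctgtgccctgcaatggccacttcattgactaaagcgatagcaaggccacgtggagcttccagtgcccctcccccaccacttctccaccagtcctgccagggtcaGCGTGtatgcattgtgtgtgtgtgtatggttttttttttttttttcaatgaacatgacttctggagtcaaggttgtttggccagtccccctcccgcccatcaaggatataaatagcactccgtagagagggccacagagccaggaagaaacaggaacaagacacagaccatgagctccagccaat
Cited4 (chr5:139531915-139532214): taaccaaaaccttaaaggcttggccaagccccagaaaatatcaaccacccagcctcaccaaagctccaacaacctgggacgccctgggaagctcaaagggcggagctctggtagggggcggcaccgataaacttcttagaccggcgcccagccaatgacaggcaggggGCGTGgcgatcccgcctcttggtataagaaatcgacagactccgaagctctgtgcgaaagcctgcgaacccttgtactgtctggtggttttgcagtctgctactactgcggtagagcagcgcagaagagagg
The match begins at position -135 in Nr0b2 and at -82 in Cited4, and 29.7% of 33469 rat promoters of this length hold GCGTG on either strand. The element CAAGGTCA of the nuclear receptor LRH-1, which 1.52% of promoters hold, was searched on both strands as well, and these letters are in neither window.

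Levels below are log2 signals relative to each array's 75th percentile, and differences are differences of these log2 levels. Nr0b2 stood at -2.21, -1.76 and -2.01 on DMSO arrays 1, 2 and 3. It stood at 0.24, -0.07 and 0.14 on triclosan arrays 1, 2 and 3 and at -0.12 and -0.10 on diclosan arrays 1 and 2. All 5 phenol arrays lay far above the highest DMSO array, and triclosan 1 was the highest of them. The mean was -1.99 ± 0.22 (SD, n = 3) with DMSO and 0.02 ± 0.16 (SD, n = 5) with the phenols, a difference of 2.01 with a 95% interval of 1.73 to 2.28 (limma, adjusted p = 0.00306). Taken singly, triclosan was 2.09 above DMSO (adjusted p = 0.0120) and diclosan 1.88 above it (adjusted p = 0.0527), both against the same DMSO arrays. The call was lost without DMSO 3 (adjusted p = 0.0514) and with the row of the array on the slide, its column or the replicate number as a block (adjusted p = 0.0720, 0.126 and 0.136), while the difference was 1.59 to 2.23 over the alternatives other than leaving out an array.

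Cited4 stood at -2.56, -2.40 and -2.41 on DMSO arrays 1, 2 and 3. It stood at -1.80, -1.89 and -1.95 on the triclosan arrays and at -1.80 and -1.84 on the diclosan arrays. The phenol arrays lay close together and above every DMSO array. The pooled difference was 0.60 (95% interval 0.48 to 0.72, limma, adjusted p = 0.0287). The single differences were 0.58 for triclosan (adjusted p = 0.0872) and 0.63 for diclosan (adjusted p = 0.121). The Cited4 call was fragile: leaving out any array but triclosan 3 ended it (adjusted p = 0.0798 to 0.189, against 0.0308 without triclosan 3). It also ended with centring on the median (0.0951), quantile normalization (0.0591), no filter on dim probes (0.203), equal weight for the compounds (0.0883) and the row, column or replicate block (0.415, 0.239 and 0.136).

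Many more transcripts had a small p before adjustment than passed after it. The pooled comparison gave an unadjusted p under 0.05 for 2560 transcripts (12.9%), 1212 higher and 1348 lower, where 994 would fall there if nothing differed and all tests were independent. That count of 2560 depended on the processing. It was 1384 with centring on the median, 1566 without DMSO 1 and 2942 with the replicate number as a block. Triclosan alone gave 2675 such transcripts (13.5%) and 1 call (0.00503%), Nr0b2, and diclosan alone gave 1875 (9.44%) and 0 calls. The 95% interval reached a median of 0.117 to either side of the difference in the pooled comparison, against 0.129 for triclosan and 0.145 for diclosan. The median size of a pooled difference was 0.054, so a typical difference was smaller than the interval could resolve. All 5 phenol arrays lay above the 3 DMSO arrays for 949 transcripts (4.78%) and below them for 945 (4.76%), together 9.53% of transcripts.

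**Figure D1:**
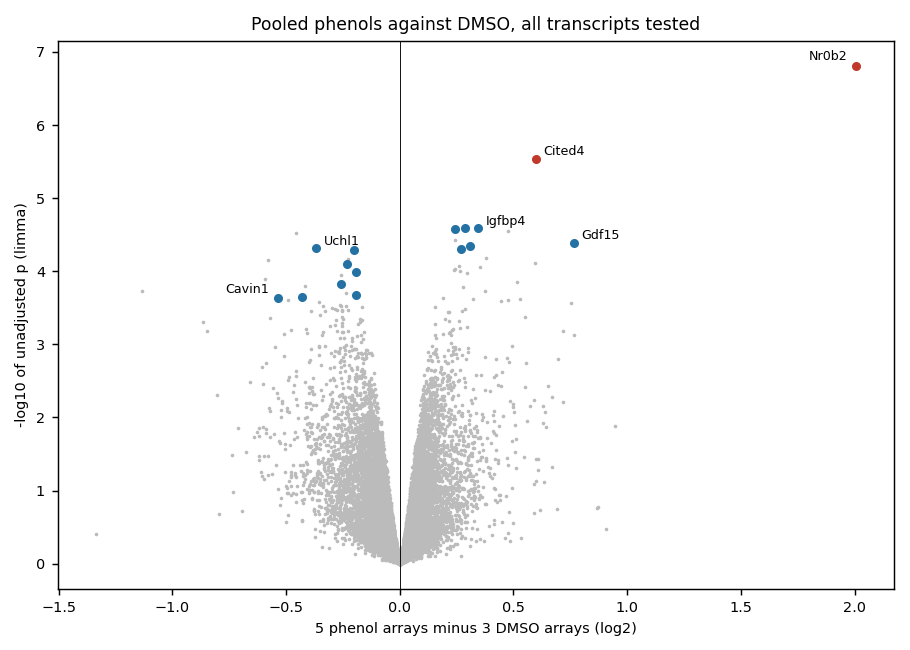
Each point is 1 of 19872 transcripts; the horizontal axis is the log2 difference between the 5 phenol and 3 DMSO arrays and the vertical axis is -log10 of the unadjusted limma p. Nr0b2 (difference 2.01) and Cited4 (0.60), in red, passed; the blue points are the 14 genes with a symbol and the next smallest p in each direction, 6 higher and 8 lower, and did not pass.

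Below Nr0b2 and Cited4, the 6 named genes with the smallest p among higher differences all had an adjusted p of 0.0779 and so did not pass. Gdf15, a secreted cytokine of stressed cells, stood at 0.31, 0.25 and -0.02 with DMSO, at 1.14, 0.99 and 0.90 with triclosan and at 0.88 and 0.80 with diclosan. Its groups did not overlap, DMSO 3 was the lowest array, and its pooled difference was 0.77 (0.55 to 0.98). Igfbp4, which binds insulin-like growth factors outside the cell, stood at 4.03, 4.08 and 4.01 with DMSO against 4.31 to 4.44 with the phenols, a difference of 0.34 (0.25 to 0.44). Fem1b, a substrate receptor of a cullin ubiquitin ligase, differed by 0.29 (0.21 to 0.36). Slc40a1, the iron exporter ferroportin, differed by 0.24 (0.18 to 0.31). Msc, a basic helix-loop-helix repressor, differed by 0.31 (0.22 to 0.40), and Gjb2, a connexin of hepatocyte gap junctions, by 0.27 (0.19 to 0.35). In each of these 6 genes all 5 phenol arrays lay above all 3 DMSO arrays (4.78% of all transcripts), which the choice by smallest p makes likely.

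**Figure D2:**
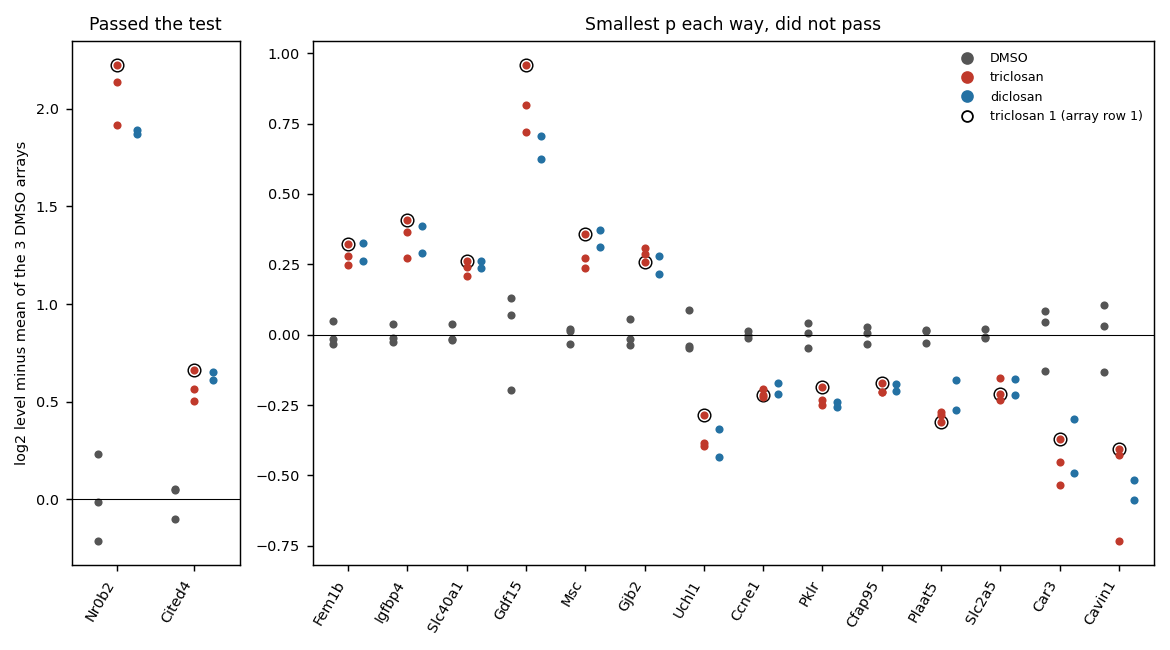
Each point is 1 array of the first slide, plotted as its log2 level minus the mean of the 3 DMSO arrays, for the 2 genes that passed (left) and the 14 with a symbol and the next smallest p (right, on a wider scale); the ringed point is triclosan 1. The phenol arrays lie wholly on one side of the DMSO arrays for all 16 genes, from 1.87 to 2.23 for Nr0b2 and from -0.73 to -0.41 for Cavin1. The choice by smallest p makes such separation likely.

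On the lower side no transcript passed, and the 8 named genes with the smallest p had differences of -0.54 to -0.19. Uchl1, a deubiquitinating enzyme, stood at 2.17, 2.03 and 2.04 with DMSO, at 1.79, 1.68 and 1.69 with triclosan and at 1.74 and 1.64 with diclosan. Its difference was -0.37 (-0.48 to -0.26, adjusted p = 0.0779). Ccne1, the G1 cyclin that drives entry into S phase, stood at 0.97, 0.98 and 0.99 with DMSO against 0.76 to 0.81 with the phenols. Its difference was -0.20 (-0.26 to -0.14, adjusted p = 0.0779), and the SD of its DMSO arrays was 0.011. The choice by smallest p favours genes with so small a spread. Pklr, the liver pyruvate kinase that ends glycolysis, differed by -0.23 (adjusted p = 0.0811). Slc2a5, a fructose transporter, differed by -0.19 (adjusted p = 0.112), and Car3, a carbonic anhydrase abundant in male rat liver, by -0.43 (adjusted p = 0.112). Cavin1, a coat protein of caveolae, had the largest of these differences, -0.54 (-0.73 to -0.34, adjusted p = 0.112), at a low signal. Cfap95 (-0.19, adjusted p = 0.0811) and Plaat5, a phospholipid acyltransferase (-0.26, adjusted p = 0.0996), complete the set. The phenol arrays lay below all DMSO arrays in each of the 8 (4.76% of all transcripts), which the choice by smallest p again makes likely.

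The difference between triclosan and diclosan, the 1 pair of compounds compared, was measured at the same 30 µM and 24 h on the same slide. None of the 19872 transcripts passed (limma, 0 calls), and 1427 had an unadjusted p under 0.05 (7.18%). For Nr0b2 triclosan exceeded diclosan by 0.21, with an interval of -0.11 to 0.54 (adjusted p = 0.780). For Gdf15 the difference was 0.17 (-0.09 to 0.43) and for Cited4 it was -0.06 (-0.21 to 0.10). These intervals leave room for a difference in either direction, so they do not show that the compounds act alike. Among the 16 leading genes the narrowest interval was that of Ccne1, -0.10 to 0.06 around -0.02.

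Of 391 tested genes on the lists, 30 had an unadjusted p under 0.05 between the phenols (7.67%, against 7.18% of all transcripts), and none passed. The smallest p belonged to Slc2a1, a glucose transporter (-0.21, adjusted p = 0.408), and the immediate early genes Atf3 (-0.22, adjusted p = 0.449) and Ier2 (-0.18, adjusted p = 0.524), which fall outside the naming rule and were chosen after their values were seen. Klf5, Cyp4a3 and Acat2 met that rule and serve as examples. Klf5, a Kruppel-like transcription factor of proliferating epithelia, stood at -1.19, -1.16 and -1.19 with DMSO, at -1.57, -1.49 and -1.56 with triclosan and at -1.32 and -1.39 with diclosan. The 3 groups did not overlap, and triclosan was lower than diclosan by a log2 difference of -0.18 (-0.28 to -0.09, adjusted p = 0.553). These values are of the brightest Klf5 probe, whose pooled difference was -0.29. Dimmer Klf5 probes above background had pooled differences of 0.03 and -0.15. Cyp4a3, a fatty acid hydroxylase driven by PPARalpha, was 0.28 above DMSO with triclosan and 0.06 above it with diclosan. The difference between the phenols was 0.22 (0.08 to 0.36, adjusted p = 0.608). Acat2, which condenses acetyl-CoA at the start of cholesterol synthesis, was lower with diclosan (-0.32) than with triclosan (-0.21), a difference of 0.11 (0.03 to 0.20, adjusted p = 0.632).

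**Figure D3:**
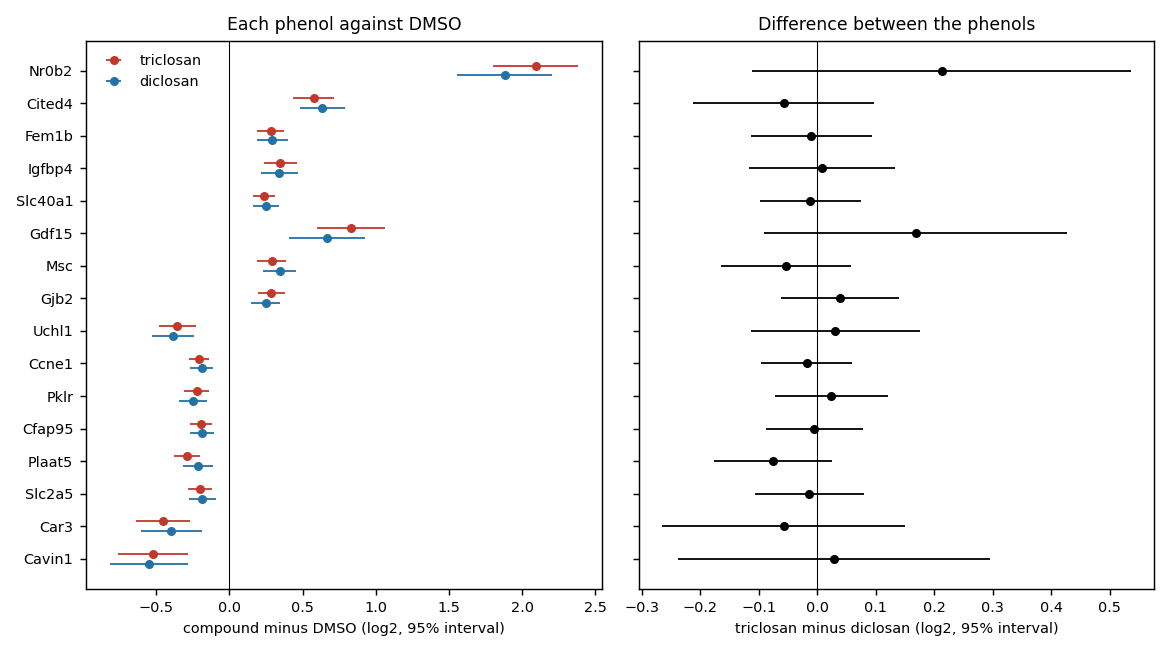
Left, the log2 difference of triclosan (red, 3 arrays) and diclosan (blue, 2 arrays) from the same 3 DMSO arrays with 95% intervals, for the 16 leading genes; right, triclosan minus diclosan with its 95% interval. The right-hand intervals all include 0, from 0.21 (-0.11 to 0.54) for Nr0b2 to 0.03 (-0.24 to 0.30) for Cavin1.

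The arrays of the second slide took no part in the fits above and were fitted only in the alternatives that used all 12 arrays or added diclosan 3. Diclosan 3 lay 1.63 above the DMSO mean for Nr0b2, 0.58 for Cited4 and 0.70 for Gdf15. The 3 CCPB arrays averaged 2.25, 0.91 and 0.92 above it for the same genes. Diclosan 3 was above the DMSO mean for each of the 8 leading higher genes, from 0.10 for Msc and Gjb2 upward, and below it for each of the 8 leading lower genes. CCPB, which lacks the hydroxyl group, lay on the same side for all of these genes except Slc2a5 (0.11).

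How many changes the pooled arrays yield turned on the variance model. When limma's prior variance was allowed to follow the signal level and was fitted robustly, 228 transcripts passed in the pooled comparison (1.15%), 108 higher and 120 lower. Of these, 193 also passed for triclosan alone, 52 for diclosan alone and 46 for both, and 29 passed only when the phenols were pooled, with both single differences on the same side (15 higher, 14 lower). Triclosan alone had 397 calls under that model, of which 204 were not called in the pool, so pooling with diclosan gave fewer calls than triclosan by itself. The prior carried 13.8 degrees of freedom there against 1.99 in the main model. The trend by itself gave 143 calls and the robust step by itself 2, a split made after the data were seen. Nr0b2, Cited4 and all 14 other leading genes were among the 228. Cited4 was not among the 29, as it also passed for triclosan and for diclosan alone (limma, adjusted p = 0.000868 and 0.00285). Leaving out DMSO 1, DMSO 2, diclosan 1 or triclosan 2 moved the 228 to 52, 90, 384 and 130, leaving out DMSO 3, triclosan 3 or diclosan 2 to 144, 141 and 137, and the row block to 30. Nr0b2 and Cited4 passed under each of those alternatives of the trend model.

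Among the 29, the named transcripts included Ebp, a sterol isomerase of cholesterol synthesis (-0.11, adjusted p = 0.0315 under the trend model), Hba-a1, an alpha globin (-0.19, adjusted p = 0.0339), and Ugt2b15, a glucuronosyltransferase (0.11, adjusted p = 0.0497). Msc (0.31, adjusted p = 0.0365) and Cavin1 (-0.54, adjusted p = 0.0439) were among them too. Ebp and Hba-a1 fall outside the naming rule and were chosen after their values were seen.

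The list of cholesterol synthesis genes had the lowest median of the 24 lists. All 27 were tested and 0 passed in the main model, where 2 of 19872 passed. The median pooled difference was -0.10 against -0.005 over all transcripts, and 23 of 27 members were below 0. In 15 of 27 the 5 phenol arrays lay below all 3 DMSO arrays, against 4.76% of all transcripts, and the same number had an unadjusted p under 0.05 and a lower level, against 6.78%. By array the list's median stood at -0.002, -0.003 and 0.013 on the DMSO arrays relative to their mean. It stood at -0.078, -0.063 and -0.082 on triclosan arrays 1, 2 and 3 and at -0.115 and -0.141 on diclosan arrays 1 and 2. Every phenol array was therefore lower than every DMSO array, the diclosan arrays most so. Triclosan 1 was the only phenol array in the DMSO arrays' row of the slide, and a part of the row in these values was not tested.

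**Figure D4:**
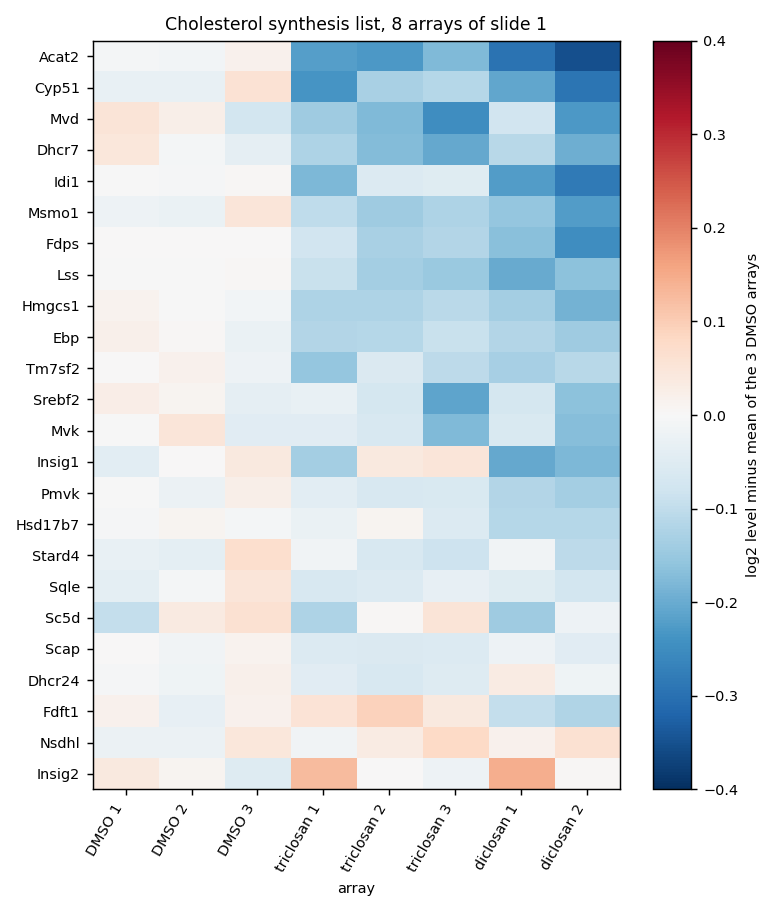
Each row is 1 of 24 of the 27 cholesterol synthesis genes and each column 1 of the 8 arrays; colour gives the log2 level minus the mean of the 3 DMSO arrays, blue for lower and red for higher. Most rows are blue across the 5 phenol columns, from Acat2 (-0.25) at the top, while the DMSO columns stay pale.

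Acat2 stood at 4.49, 4.49 and 4.52 with DMSO, at 4.28, 4.27 and 4.32 with triclosan and at 4.20 and 4.15 with diclosan, a pooled difference of -0.25 (-0.35 to -0.16, adjusted p = 0.112). The groups did not overlap, and both diclosan arrays lay below the triclosan arrays. Hmgcs1, which makes HMG-CoA, differed by -0.14 and Lss, which closes the sterol ring, by -0.15 (adjusted p = 0.163 and 0.165). The 21 enzymes had a median of -0.11, with 19 below 0, and the 4 regulators a median of -0.07. Under the trend model 10 of the 27 passed, all lower (37.0%, against 1.15% of all transcripts), among them Acat2, Hmgcs1 and Lss. That count was 2 without DMSO 1, 2 without DMSO 2, 5 without DMSO 3, 6 without diclosan 2 and 0 with the row block, and 2 with centring on the median.

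Of the 27 cholesterol genes, 19 had a promoter of this window in RefSeq. The sterol regulatory element was searched as TCACNCCAC on both strands and its letters were in 0 of the 19, against 1.12% of all promoters. At so low a share a count of 0 among 19 is likely for any genes, and variants of these letters were not searched. The count therefore cannot show that the element is missing. GCGTG was in 12 of 19 (29.7% of all promoters) and the antioxidant response element TGACNNNGC in 4 of 19 (12.1%). The counts are of genes, with a match in any promoter of the gene, while the shares are of single promoters, so the measures differ. The Acat2 promoter, on the plus strand of chromosome 1 in GRCr8, is shown because that gene had the lowest pooled difference of the list. Its capitals mark 3 copies of GCGTG that begin at positions -99, -89 and -84 and do not overlap.
Acat2 (chr1:50100590-50100889): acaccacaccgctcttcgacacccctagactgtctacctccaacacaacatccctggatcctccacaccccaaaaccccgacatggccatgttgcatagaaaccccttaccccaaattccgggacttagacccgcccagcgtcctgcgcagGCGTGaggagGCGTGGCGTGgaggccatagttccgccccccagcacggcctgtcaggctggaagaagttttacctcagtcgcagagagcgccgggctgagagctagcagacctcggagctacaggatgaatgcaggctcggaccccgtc
A match is a description of the letters and names no bound factor.

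The lists for drug metabolism lay on the higher side. In the CAR and PXR list, 16 oxidising enzymes and 3 receptor genes were tested, 0 passed, 16 of the 19 were above 0 and the median was 0.10, with 7 of 19 (6 of the enzymes) at an unadjusted p under 0.05 and higher (6.10% of all transcripts). Cyp2b2, a classical CAR target, stood at -0.97, -1.04 and -1.28 with DMSO, at -0.22, -0.77 and -0.68 with triclosan and at -0.38 and -0.89 with diclosan. The phenol arrays lay above the DMSO arrays but spread widely, triclosan 1 and diclosan 1 highest, and the difference was 0.51 (0.14 to 0.87, adjusted p = 0.282). Cyp2c6v1 differed by 0.25 (adjusted p = 0.163), Nr1i3, the gene of CAR itself, by 0.24 (adjusted p = 0.213) and the PXR target Cyp3a23-3a1 by 0.10 (adjusted p = 0.494). Among conjugating enzymes 31 were tested, 0 passed, 26 were above 0 and the median was 0.07, with 11 at an unadjusted p under 0.05 and higher. The 7 sulfotransferases had the highest median of its groups, 0.15, against 0.07 for 9 glucuronosyltransferases and 0.05 for 15 glutathione transferases. Gsta3 stood at 3.81, 3.88 and 3.91 with DMSO against 4.06 to 4.13 with the phenols (0.24, adjusted p = 0.0811), and Gsta1 differed by 0.23 (adjusted p = 0.139). The AhR list gave 3 tested targets and 2 receptor genes and 0 calls, with Cyp1a1 at 0.23 (0.05 to 0.40, adjusted p = 0.306).

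**Figure D5:**
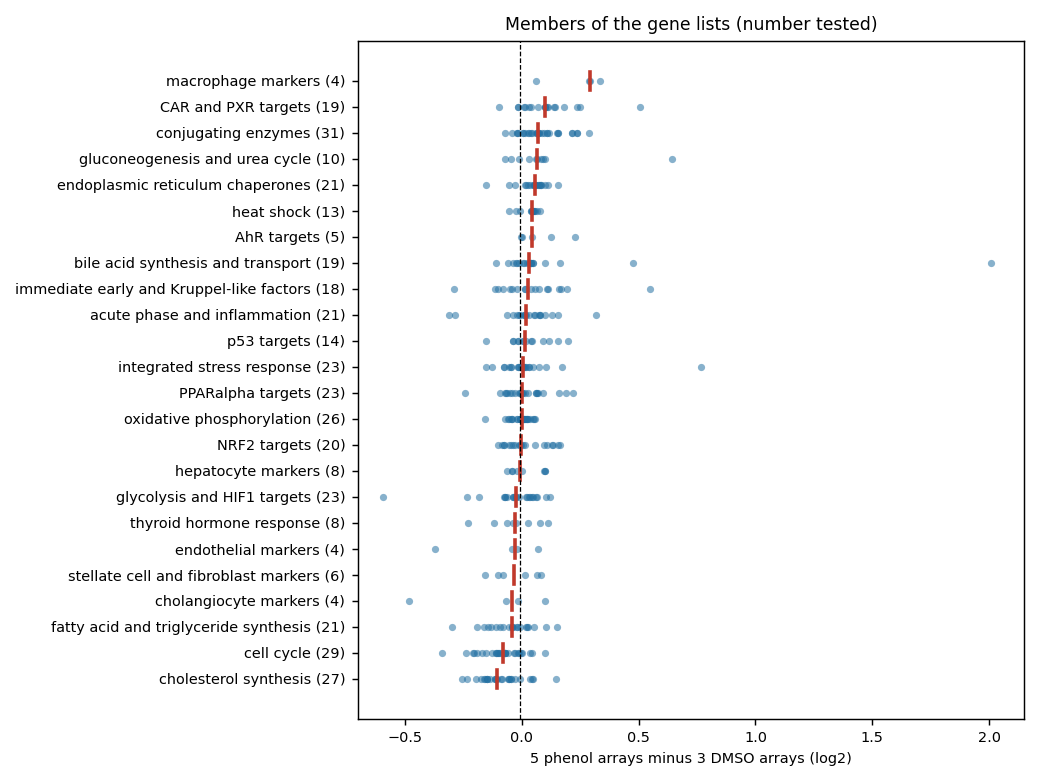
Each point is a tested member of a gene list, placed by its log2 difference between the 5 phenol and 3 DMSO arrays, with the list's median as a red bar and the median of all 19872 transcripts (-0.005) as a dashed line; the number tested is in brackets. The cholesterol synthesis (-0.10) and cell cycle (-0.08) medians lie lowest, and the point at 2.01 in the bile acid list is Nr0b2.

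In the bile acid list 19 members were tested and 1 passed, Nr0b2, and the median of the list was 0.03. The 7 tested enzymes of bile acid synthesis had a median of 0.03 and none passed. Abcg5, a subunit of the sterol exporter, stood at -4.25, -4.31 and -4.19 with DMSO, at -3.56, -3.76 and -3.79 with triclosan and at -3.90 and -3.88 with diclosan. Its groups did not overlap, at a low signal, and the difference was 0.48 (0.30 to 0.65, adjusted p = 0.112).

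Cell cycle genes lay on the lower side. Of 29 tested, 0 passed, 25 were below 0, the median was -0.08 and 12 of 29 had an unadjusted p under 0.05 and a lower level (6.78% of all transcripts). The 3 G1 cyclins had a median of -0.20, against -0.10 for 13 mitotic genes and -0.03 for 13 replication genes. Ccnd1, the G1 cyclin that answers growth factors, stood at 4.65, 4.60 and 4.64 with DMSO against 4.36 to 4.49 with the phenols (-0.21, adjusted p = 0.158).

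Among the stress, energy and signalling lists no member passed. The counts that follow are of members at an unadjusted p under 0.05, against 6.10% of all transcripts on the higher side and 6.78% on the lower. Oxidative phosphorylation had 26 tested members, a median of 0.001 and none at an unadjusted p under 0.05 in either direction. Genes of the integrated stress response (23 tested) had their median at 0.004, with 3 higher and 1 lower, and among them Gdf15 stood apart at 0.77 while Fgf21 was at 0.05, Trib3 at 0.03 and Ddit3 at 0.01. NRF2 targets had a median of -0.004 over 20 members, but 5 of them were higher and 2 lower, and in 6 the groups did not overlap (9.53% of all transcripts). Among them were Hmox1, which degrades heme, at 0.16 (adjusted p = 0.232) and the quinone reductase Nqo1 at 0.13 (adjusted p = 0.218). Endoplasmic reticulum chaperones had a median of 0.06 with 18 of 21 above 0, 3 higher and 1 lower, led by Dnajb9 at 0.16 (adjusted p = 0.112). Targets of p53 had a median of 0.01 over 14 members, with 4 higher and 0 lower and Cdkn1a at 0.02, and targets of PPARalpha a median of 0.002 over 23, with 1 higher and 1 lower. Heat shock genes had a median of 0.04 over 13 members, with 10 above 0 and none at such a p. Fatty acid and triglyceride synthesis had a median of -0.04 over 21, with 2 higher and 6 lower, among the lower Acss2, which makes acetyl-CoA, at -0.16 (adjusted p = 0.139). Among immediate early genes, Egr1 stood at -2.02, -1.59 and -1.61 with DMSO against -1.26 to -1.13 with the phenols, a difference of 0.55 (0.33 to 0.77, adjusted p = 0.127), DMSO 1 being the lowest array. The 18 immediate early and Kruppel-like factors had a median of 0.03, with 5 higher and 2 lower. The 21 acute phase and inflammation genes had a median of 0.02, with 6 higher and 0 lower. The remaining medians were -0.02 for 23 glycolysis and HIF1 targets (1 higher, 2 lower), 0.06 for 10 genes of gluconeogenesis and the urea cycle (2 higher, 1 lower) and -0.03 for 8 genes of thyroid hormone response (1 higher, 2 lower).

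Signals of the labelled cell type were high on all arrays. The summed linear level of the 8 hepatocyte markers was 2162 to 2257 times the 75th percentile with DMSO and 2104 to 2220 times with the phenols. Of the 11 macrophage markers 4 were tested, and these summed to 0.718 to 0.996 with DMSO and 0.771 to 1.19 with the phenols. Their median difference was 0.03 with triclosan and 0.68 with diclosan, with C1qb at 0.54 to 0.83 on the diclosan arrays and -0.18 to 0.29 on the triclosan arrays. Adgre1, Marco and Vsig4 were not above background on any of the 8 arrays. The part of macrophages in the results was not tested, and in such bulk RNA fewer cells of a type and less RNA per cell cannot be told apart. Sums for stellate cell and fibroblast (14.0 to 15.3 with DMSO, 12.7 to 14.8 with the phenols), endothelial (8.15 to 8.60 and 7.56 to 8.54) and cholangiocyte markers (2.89 to 3.07 and 2.89 to 3.34) overlapped between the groups. They cover only the tested members, 6 of 10, 4 of 9 and 4 of 8 in that order. Defining markers at background throughout were Dcn, Lrat, Lum and Pdgfrb, Lyve1, Pecam1 and Stab2, and Cftr, Krt19 and Spp1.

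The arrays differed little in quality and not only by group. Between 51.7% and 55.6% of probes were above background, and the median absolute difference between 2 arrays was 0.063 to 0.083 within a group, 0.066 to 0.085 between triclosan and diclosan and 0.070 to 0.108 between a phenol and DMSO. Row 1 of the slide held DMSO 1, 2 and 3 and triclosan 1, and row 2 held the other 4 phenol arrays. The first principal component (21.5% of the variance) placed triclosan 1 at -5.70 among the DMSO arrays (-9.49 to -4.63), the diclosan arrays at -0.60 and 0.19, and triclosan 2 and 3 at 15.5 and 12.2. On the second (20.4%) triclosan 1 was lowest at -12.5, near diclosan 2 (-10.4), with the DMSO arrays at 12.7, 9.60 and -2.48. With the row as a block the comparison rests on triclosan 1 against DMSO, and within row 1 that array exceeded the DMSO mean by 2.23 for Nr0b2, 0.66 for Cited4 and 0.96 for Gdf15. Row 2 holds no DMSO array and gives no value of its own.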

How the data were processed

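RNA of 12 rat hepatocyte cultures was labelled with Cy3 and hybridised to one-colour Agilent arrays, per the labels' protocols. Per the file headers, the authors' scanner files hold spot intensity from Agilent Feature Extraction 10.7.1.1, already background-subtracted and detrended, with a floor for dim spots that compresses differences there. The authors' deposited value table holds that signal as a ratio to each array's 75th percentile and was used as an alternative. No column belonged to another sample (0).

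Of 62976 spots per array, 58717 were not controls. Spots flagged as non-uniform (1 to 8 per array) or as population outliers (276 to 363) were left out, and none was saturated (0). The spots of 45598 probes were averaged in log2. Of these probes, 19 lacked a usable spot on at least 1 of the 12 arrays and were not used. Each array's 75th percentile was subtracted, which hides any change common to most bright transcripts. Probes well above background on all 3 DMSO or all 5 phenol arrays were kept (23704). The brightest probe stood for each gene, giving 19872 transcripts, 10557 with a symbol through RefSeq accessions (GRCr8, 21229 probes named and 24369 not). The number of arrays limits the precision.

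limma 3.58.1 in R 4.3.3 (1.17.8 for data.table) fitted the 8 arrays without a slide term, as 2 groups for the pooled comparison and as 3 groups for the single ones, two-sided, with Benjamini-Hochberg adjustment over all transcripts and 95% intervals. The scripts were tested on simulated data. Named genes were those that passed, the smallest p up to 8 in each direction, up to 4 of each of the 24 lists, and a fixed set of liver genes. Some genes that met this rule are not reported here. The compounds, lists and rules were chosen with earlier results of these data known. Alternatives covered scaling, background correction (normexp with offset 50 on median signals, in place of the planned mean signals), filters, variance model, blocks and left-out arrays.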

Additional observations from a re-analysis of the deposited data

Results flagged for a closer look

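Within the 5 phenol arrays, 1 array lay apart from the other 4 for 4 of the named genes, judged by its gap to the nearest array as a share of the whole range. Chance marks about 1 in 20 such groups, and 4 of the 115 genes checked is no more than that. For Plaat5, diclosan 1 was -0.16 from the DMSO mean while the others were at -0.31 to -0.27 (gap over range 0.715). For Gsta1, diclosan 1 was at 0.12 against 0.24 to 0.28 (0.729). For Tagln, a smooth muscle and stellate cell marker, diclosan 1 was at 0.03 against -0.14 to -0.12 (0.882). For Col3a1, a fibroblast collagen at a signal near background, triclosan 2 was at 1.30 against -0.51 to -0.04 (0.739).

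The arrays of the second slide, which were fitted only in the alternatives that used all 12 arrays or added diclosan 3, also carried the higher signal of the pair that passed. Relative to the DMSO mean of the first slide, Nr0b2 was at 1.63 on diclosan 3 and at 2.25 on the CCPB arrays. Cited4 was at 0.58 on diclosan 3 and at 0.91 on the CCPB arrays. The second slide holds no DMSO array, and diclosan is the only compound on both slides. Slide and compound can therefore be separated there only through diclosan 3, a single array.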

How the results depend on the processing

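No named gene that passed changed sign: over 115 named genes and 2871 values under other settings, 38 values changed sign, all of them uncalled, and 10 of the 24 lists changed the sign of their median in some setting. These were the lists of PPARalpha targets, NRF2 targets, the integrated stress response, glycolysis and HIF1 targets, oxidative phosphorylation and all 5 lists of cell type markers. No scaling moved the median of all transcripts by more than 0.1, and normexp moved the share of higher differences among unadjusted p under 0.05 from 47.3% to 39.4%. The pooled count of 2 became 1 with quantile normalization, no dim-probe filter or equal compound weight, 9 with normexp, 228 with trend and robust variance, 143 with the trend only, 31 with all 12 arrays and a slide block, 30 at an adjusted p under 0.1 and 0 with the row or column block. The triclosan count of 1 became 2 with median centring or the compared groups only, 7 with normexp, 0 without the filter, 397 with trend and robust variance, 0 with the row or column block and 53 with all 12 arrays. The diclosan count of 0 became 2 with median centring, 3 with normexp, 1 with the authors' deposited table, with probes above background on all 8 arrays or with the compared groups only, 59 with trend and robust variance and 3 with all 12 arrays. Triclosan against diclosan stayed at 0 under these settings except for 1 with all 12 arrays. The count found only by pooling, 1, became 0 with quantile normalization and the row or column block, 6 with normexp, 29 with trend and robust variance and 4 with all 12 arrays.

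Leaving out each array in turn gave 0 to 3 pooled calls, 0 to 2 for triclosan, 0 to 3 for diclosan, 0 to 1 between the phenols and 0 to 3 found only by pooling; the pooled count was 0 without DMSO 3 and 3 without triclosan 3. Under trend and robust variance the pooled 228 ranged from 52 to 384, and became 30 with the row block, 446 with the column block and 515 with the replicate block. Deviations from the group mean correlated at -0.116 to 0.096 between same-numbered arrays and at -0.168 to 0.163 between others. In groups of 2 or 3 arrays the mean constrains these deviations, so they cannot decide whether the numbers mark pairs. With the replicate number as a block in the main model, the pooled, triclosan and pooled-only counts were all 0, and 2942 transcripts had an unadjusted p under 0.05. The threshold of 0.1, the trend only and the further settings of the trend model were chosen after seeing the data, and the cause of these shifts was not tested.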
